A study of Mus musculus with 6 samples.

Results

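Peroxiredoxins, thioredoxin, catalase and copper/zinc superoxide dismutase, the enzymes and carrier protein that remove superoxide and peroxides, were examined in the spleens of mice fed raw garlic. The list held 10 genes, Prdx1 to Prdx6, Txn1, Txnrd1, Sod1 and Cat, and a gene was read through every probe set that the array annotation gave to it alone. By that rule 7 of the 10 genes were measured, through 19 probe sets, out of 18193 genes with 34945 such probe sets on the array. The 7 genes were Prdx2, Prdx3, Prdx4, Txn1, Txnrd1, Sod1 and Cat. The annotation gave all 5 probe sets of Prdx1 to a second gene as well, so that no value is given for Prdx1, and Prdx5 and Prdx6 were not analysed here.

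The spleens came from male C57BL/6J mice that were 8 weeks old at the start. For 15 weeks 3 mice ate a diet with 4% lyophilized raw garlic powder, and the 3 control mice ate the same purified diet, cysteine included, with 4% cellulose in place of garlic. RNA of whole frozen spleen from each mouse was read on 1 Affymetrix array, and the values are MAS5 signals, intensities on a linear scale. Mice and arrays bear the numbers 1 to 3 within each diet, and the labels do not say that a number ties a garlic-fed mouse to a control mouse.

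Superoxide dismutases turn superoxide into hydrogen peroxide, and catalase and the peroxiredoxins then remove the peroxide. Most peroxiredoxins are oxidized in the reaction and are reduced again by thioredoxin, which thioredoxin reductase in turn recharges with electrons from NADPH. The spleen is rich in cells with a heavy peroxide load: its red pulp macrophages break down old red cells, in mice it makes red cells through adult life, and red cells themselves carry much Prdx2, catalase and Sod1 protein.

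The lists of markers set the frame for these values. Genes of B cells, T cells, red pulp macrophages and erythroid cells were detected, and 0 measured genes of these lists were under the floor of 23.5 signal units on every array. Of 19 listed erythroid genes 16 were measured and 15 tested. Of the 15, 14 had all garlic-fed spleens above all control spleens, against 7.52% of all probe sets tested. Their summed signal was 75068 to 107121 in garlic-fed spleens, against 44465 to 57899 in control spleens, with garlic-fed mouse 3 the highest of all. In whole spleen, more or fewer cells of a type and more or less RNA per cell cannot be told apart. Genes of the exocrine pancreas, a neighbouring organ, had summed signals of 2188, 37709 and 2450 in garlic-fed spleens 1 to 3, against 149550, 19451 and 69672 in control spleens 1 to 3. Gapdh signal at the 3′ end over that at the 5′ end was 0.769 to 0.999 in garlic-fed spleens and 0.801 to 0.881 in control spleens.

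Among the member genes, Prdx2 and Prdx3 had the highest garlic-to-control ratios, Txnrd1 came next, Prdx4 was the one gene with a ratio under 1, and Txn1, Sod1 and Cat had ratios of 1.04 to 1.06. With limma on log2 signals, 0 of the 17 member probe sets bright enough to be tested were higher in garlic-fed spleens at an adjusted p under 0.05, and 0 were lower; over all 27022 probe sets tested, 0.226% were higher in garlic-fed spleens and 0.0111% were lower there. By the unadjusted p at the same threshold, 4 member probe sets were higher, against 5.58% of all probe sets tested, and 0 were lower, against 5.44%. The same 4 probe sets, of Prdx2, Prdx3 and Txnrd1, had all garlic-fed spleens above all control spleens, a pattern held by 7.52% of all probe sets tested. The reverse pattern, held by 9.29% of all, was seen in 0 of the 17, and 13 overlapped. No member probe set passed 1.8-fold with an unadjusted p under 0.05. Taking each gene by its brightest probe set, the log2 fold change had a median of 0.09 over the 7 genes, with 6 above 0 and 1 below, beside a median of -0.03 over the 12262 genes tested, 44.2% of which were above 0.

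**Figure D1:**
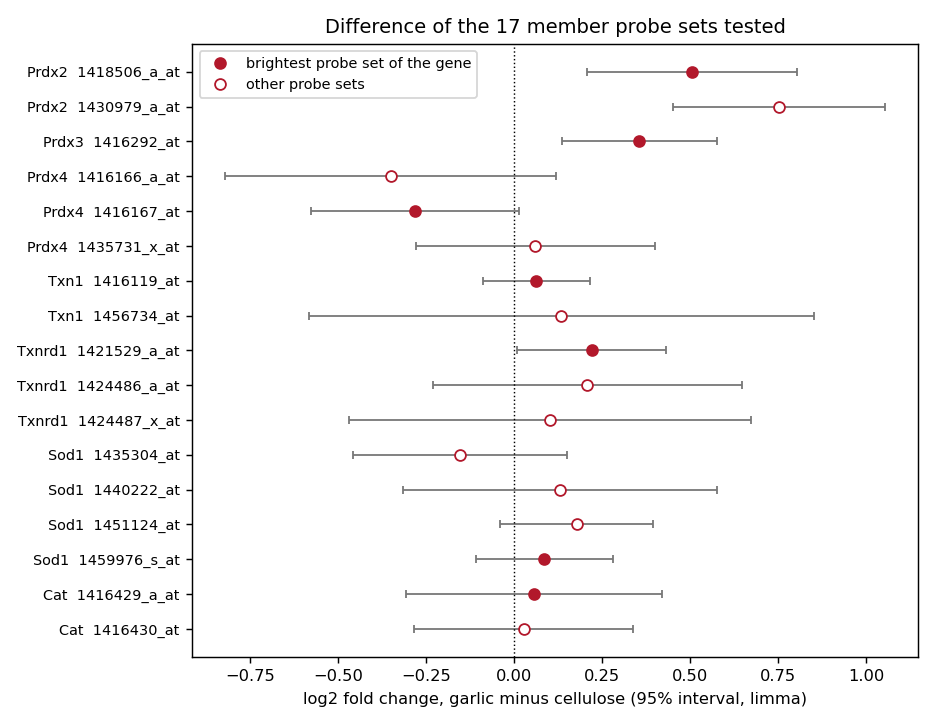
Log2 fold change, garlic minus control (cellulose), of the 17 member probe sets tested, with the 95% interval from limma (3 arrays per diet). Filled points are the brightest probe set of each gene and open points the others. The intervals of both Prdx2 probe sets, of Prdx3 and of the brightest Txnrd1 probe set lie above 0, and the rest cross 0.

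Prdx2, the abundant cytosolic peroxiredoxin of red cells, was read by 2 probe sets. On the brighter, 1418506_a_at, its signal was 13676, 14420 and 18589 in garlic-fed spleens 1 to 3, against 9135, 11484 and 12216 in control spleens 1 to 3. All garlic-fed spleens lay above all control spleens, with garlic-fed mouse 3 the highest and control mouse 1 the lowest. The means were 15562 ± 2648 and 10945 ± 1610 (SD, n = 3 each), a 1.42-fold ratio with a 95% interval of 1.16 to 1.74 (log2 fold change 0.51, standard error 0.13, limma adjusted p = 0.182). On the second probe set, 1430979_a_at, the signal was 2513, 2590 and 3115 in garlic-fed spleens, against 1339, 1824 and 1736 in control spleens. The same mice were highest and lowest, and the groups again did not overlap. This ratio was 1.68-fold with an interval of 1.37 to 2.08 (log2 fold change 0.75, standard error 0.14, limma adjusted p = 0.0673), the largest difference and the smallest adjusted p among the members. This probe set passed the threshold, with an adjusted p of 0.0403, when each array was also centred on its median. It passed too when the replicate number was added to the fit as a block. Under the other alternatives it did not pass, and its limma adjusted p was 0.226 without control mouse 1. With the methods' one-way analysis on log2 signals the adjusted p was 0.431.

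Prdx3, the peroxiredoxin of mitochondria, was read by a single probe set, 1416292_at. Its signal was 3586, 3865 and 4235 in garlic-fed spleens 1 to 3, against 2804, 3324 and 3007 in control spleens 1 to 3. The groups did not overlap, and as for Prdx2 garlic-fed mouse 3 was the highest and control mouse 1 the lowest. The ratio was 1.28-fold with an interval of 1.1 to 1.49 (log2 fold change 0.36, standard error 0.10, limma adjusted p = 0.205).

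**Figure D2:**
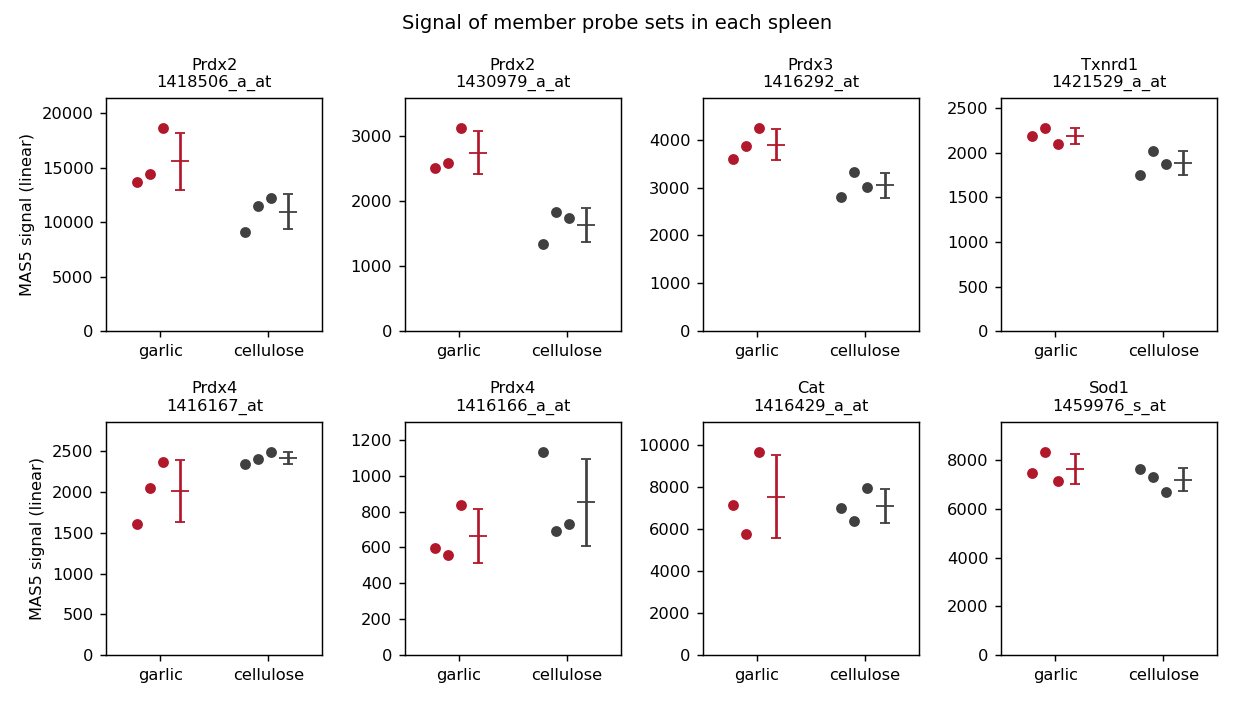
MAS5 signal (linear scale, from 0) of 8 member probe sets in each spleen, garlic-fed mice (red) left of cellulose-fed control mice (grey), with mouse 1, 2 and 3 in order and the mean and SD beside them. The garlic-fed points clear the control points for Prdx2, Prdx3 and Txnrd1 and overlap them for Prdx4, Cat and Sod1.

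Txnrd1, the selenoprotein that reduces thioredoxin in the cytosol, had 3 probe sets. On the brightest, 1421529_a_at, its signal was 2189, 2273 and 2102 in garlic-fed spleens, against 1751, 2019 and 1873 in control spleens. The groups did not overlap, though the lowest garlic-fed spleen stood close to the highest control spleen, and garlic-fed mouse 3 was here the lowest of its group. The ratio was 1.16-fold with an interval of 1.01 to 1.35 (log2 fold change 0.22, standard error 0.09, limma adjusted p = 0.435). Without the arrays brightest in pancreatic genes, garlic-fed mouse 2 and control mouse 1, an alternative chosen after seeing the data, it was 0.14 on the log2 scale and the unadjusted p was 0.29. The other probe sets overlapped between diets, with log2 fold changes of 0.21 for 1424486_a_at (standard error 0.20) and 0.10 for 1424487_x_at (standard error 0.26), and garlic-fed mouse 3 was the highest on both.

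The promoters of these 3 genes are shown because their brightest probe sets were the ones that did not overlap between diets. They come from RefSeq on GRCm38.p6, run 5′ to 3′ on the strand of the gene and span 250 bases before to 50 after the start site. Capitals mark matches on either strand to the antioxidant response element core TGACNNNGC, the GATA core GATAA and the Klf1 core CCNCNCCC, which may overlap one another. The Prdx2 promoter (chr8:84969372-84969671, plus strand) holds 2 Klf1 cores, that of Prdx3 (chr19:60874489-60874788, minus strand) holds 3, and that of the second of 3 annotated Txnrd1 starts (chr10:82858956-82859255, plus strand) holds 1 antioxidant response element core, 1 GATA core and 2 Klf1 cores. The other two Txnrd1 starts hold 0 matches to any of the 3 cores.
Prdx2: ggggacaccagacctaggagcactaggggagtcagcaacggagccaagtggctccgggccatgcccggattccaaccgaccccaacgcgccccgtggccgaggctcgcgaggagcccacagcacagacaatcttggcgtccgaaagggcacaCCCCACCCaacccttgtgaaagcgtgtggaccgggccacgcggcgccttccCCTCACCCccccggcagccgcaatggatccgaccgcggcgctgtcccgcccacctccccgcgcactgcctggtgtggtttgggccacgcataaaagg
Prdx3: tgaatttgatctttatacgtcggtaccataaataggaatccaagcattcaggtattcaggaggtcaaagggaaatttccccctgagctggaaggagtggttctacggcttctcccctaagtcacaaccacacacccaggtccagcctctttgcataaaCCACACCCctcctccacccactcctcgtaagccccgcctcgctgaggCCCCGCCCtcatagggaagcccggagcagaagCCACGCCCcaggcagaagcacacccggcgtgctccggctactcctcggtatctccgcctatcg
Txnrd1: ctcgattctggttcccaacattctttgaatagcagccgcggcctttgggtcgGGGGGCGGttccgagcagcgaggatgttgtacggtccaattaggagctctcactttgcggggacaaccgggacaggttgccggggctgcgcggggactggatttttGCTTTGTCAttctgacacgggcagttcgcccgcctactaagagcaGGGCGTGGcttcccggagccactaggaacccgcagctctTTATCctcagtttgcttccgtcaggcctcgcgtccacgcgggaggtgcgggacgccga
In the Txnrd1 sequence the antioxidant response element core reads GCTTTGTCA, its reverse complement, and lies 92 to 84 bases before the start. Of all 32851 promoters of this length in the table, 12.4% hold that core, 25.4% the GATA core and 49.5% the Klf1 core. Among the other members the Sod1 promoter also holds 1 antioxidant response element core, at 56 to 48 bases before its start, and its signal overlapped between diets. Klf1 cores were as many or more in the promoters of the members that overlapped, with 3 each in Prdx4, Txn1 and Sod1 and 4 in Cat. These matches describe letters and show no binding.

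Prdx4, the peroxiredoxin of the endoplasmic reticulum, had 4 probe sets and was the one gene with a ratio below 1. On the brightest, 1416167_at, its signal was 1612, 2055 and 2369 in garlic-fed spleens 1 to 3, against 2350, 2407 and 2493 in control spleens 1 to 3. Garlic-fed mice 1 and 2 lay below every control mouse, and garlic-fed mouse 3 lay inside the range of the control group. The ratio was 0.823 with an interval of 0.670 to 1.01 (log2 fold change -0.28, standard error 0.13, limma adjusted p = 0.481). It was -0.13 without garlic-fed mouse 1 and -0.41 without garlic-fed mouse 3. The spread was also unequal, with an SD of 380 in garlic-fed spleens and 72.0 in control spleens.

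On a second Prdx4 probe set, 1416166_a_at, the signal was 595, 556 and 835 in garlic-fed spleens, against 1132, 694 and 731 in control spleens, where control mouse 1 stood apart (log2 fold change -0.35, standard error 0.21, limma adjusted p = 0.60). Control mouse 1 was also the array with the most pancreatic signal, and without it and garlic-fed mouse 2, the brightest in pancreatic genes of its diet, the value was -0.01. The third, 1435731_x_at, had values of 380, 364 and 470 in garlic-fed spleens and 357, 384 and 418 in control spleens, a log2 difference of 0.06 (standard error 0.15). The fourth, 1431269_at, was too dim to be tested and read 28, 48.6 and 36.4 in garlic-fed spleens, against 64.4, 61.8 and 75.9 in control spleens. Every garlic-fed spleen was below every control spleen on it, at a mean signal under the filter. The 4 probe sets of Prdx4 thus did not share a sign.

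Prdx4 takes part in protein folding in secretory cells such as plasma cells, and a list of plasma cell markers, chosen after the values of Prdx4 were seen, was set beside it. Its summed signal over 8 genes was 45677, 51080 and 56085 in garlic-fed spleens 1 to 3, against 60052, 55995 and 57236 in control spleens 1 to 3. The order within the garlic-fed group was that of Prdx4 on 1416167_at, but not on 1416166_a_at, where garlic-fed mouse 2 was the lowest. The control group did not keep the order, since control mouse 1 had the highest plasma cell sum and the lowest Prdx4 signal on 1416167_at. The median log2 fold change of these 8 genes was -0.27, with 0 past the adjusted threshold. Jchain, the joining chain of secreted antibody, had -0.12 (standard error 0.07), and Xbp1, a transcription factor of secretory cells, had -0.21 (standard error 0.10). The part of plasma cells in the Prdx4 values was not tested.

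Txn1, cytosolic thioredoxin itself, had the smallest standard error of the members. On 1416119_at its signal was 11940, 12466 and 12521 in garlic-fed spleens, against 12110, 11238 and 12030 in control spleens. The groups overlapped, and the ratio was 1.04 with an interval of 0.940 to 1.16 (log2 fold change 0.06, standard error 0.07, limma adjusted p = 0.806). A dim second probe set, 1456734_at, read 121, 72.3 and 102 in garlic-fed spleens and 70.7, 123 and 77.3 in control spleens, with an interval so wide, 0.668 to 1.8, that it bounds the difference only loosely.

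Sod1, copper/zinc superoxide dismutase, had 5 probe sets, of which 4 were tested, with log2 fold changes on both sides of 0. On the brightest, 1459976_s_at, the signal was 7470, 8341 and 7161 in garlic-fed spleens, against 7638, 7310 and 6690 in control spleens, a ratio of 1.06 with an interval of 0.928 to 1.21 (log2 fold change 0.09, standard error 0.09, limma adjusted p = 0.787). On 1451124_at it was 4973, 5541 and 4428 in garlic-fed spleens, against 4473, 4557 and 4143 in control spleens (log2 fold change 0.18, standard error 0.10, limma adjusted p = 0.557). Garlic-fed mouse 2 was the highest on both, and the groups overlapped on both. The dimmer 1440222_at gave 0.13 on the log2 scale (standard error 0.20) and 1435304_at had -0.15 (standard error 0.14). The fifth, 1447761_x_at, was under the floor on 5 of the 6 arrays and gave no fold change.

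Cat, catalase of the peroxisome, was read by 2 probe sets that followed each other closely. On 1416429_a_at its signal was 7157, 5779 and 9679 in garlic-fed spleens 1 to 3, against 7024, 6366 and 7981 in control spleens 1 to 3. Garlic-fed mouse 3 was the highest and garlic-fed mouse 2 the lowest of all 6, so the garlic-fed group spanned the control group on both sides. On 1416430_at the values were 4400, 4087 and 6060 in garlic-fed spleens, against 4564, 4374 and 5167 in control spleens, with the same mice at the ends. The ratios were 1.04 with an interval of 0.807 to 1.34 on 1416429_a_at and 1.02 with an interval of 0.821 to 1.26 on 1416430_at (log2 fold changes 0.06 and 0.03, standard errors 0.16 and 0.14, limma adjusted p = 0.940 and 0.967). The direction turned without garlic-fed mouse 3, to -0.14 and -0.15 on the log2 scale, and without control mouse 2, to -0.02 on both.

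The erythroid genes were set beside the members mouse by mouse. Relative to the mean of the control spleens, the median log2 signal of the 15 erythroid genes was 0.73, 0.84 and 1.39 in garlic-fed spleens 1 to 3, and -0.29, 0.07 and 0.24 in control spleens 1 to 3. On the same scale Prdx2 (1430979_a_at) was 0.63, 0.68 and 0.94 in garlic-fed spleens and -0.27, 0.17 and 0.10 in control spleens. Prdx3 was 0.24, 0.35 and 0.48 in garlic-fed spleens and -0.12, 0.13 and -0.01 in control spleens. Within the garlic-fed group all 3 measures ran in the same order, and control mouse 1 was the lowest on all 3. Control mice 2 and 3 did not keep that order, since mouse 3 was the higher for the erythroid genes and mouse 2 for these Prdx2 and Prdx3 probe sets. On the brighter Prdx2 probe set, 1418506_a_at, control mouse 3 was the higher, at 0.17 against 0.08, as for the erythroid genes. Sod1 (1459976_s_at) did not follow the order of the erythroid genes, at 0.05, 0.21 and -0.01 in garlic-fed spleens and 0.08, 0.02 and -0.11 in control spleens.

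The median log2 fold change of the erythroid genes, 1.01, was above that of any member, and 4 of the 15 tested rose at an adjusted p under 0.05, against 0.226% of all probe sets tested (0 of the 15 without control mouse 1 or without control mouse 2). Those 4, named after their values were seen, were Ank1 and Ermap, of the red cell membrane, Kel, a blood group antigen, and Tfrc, the transferrin receptor, which brings iron into erythroblasts. Slc4a1, the anion exchanger of the red cell membrane, gave 0.46 on the log2 scale (standard error 0.10, limma adjusted p = 0.107), and Alas2, the first enzyme of erythroid heme synthesis, had 0.20 (standard error 0.15, limma adjusted p = 0.683). The part of erythroid cells in the Prdx2 and Prdx3 values was not tested.

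**Figure D3:**
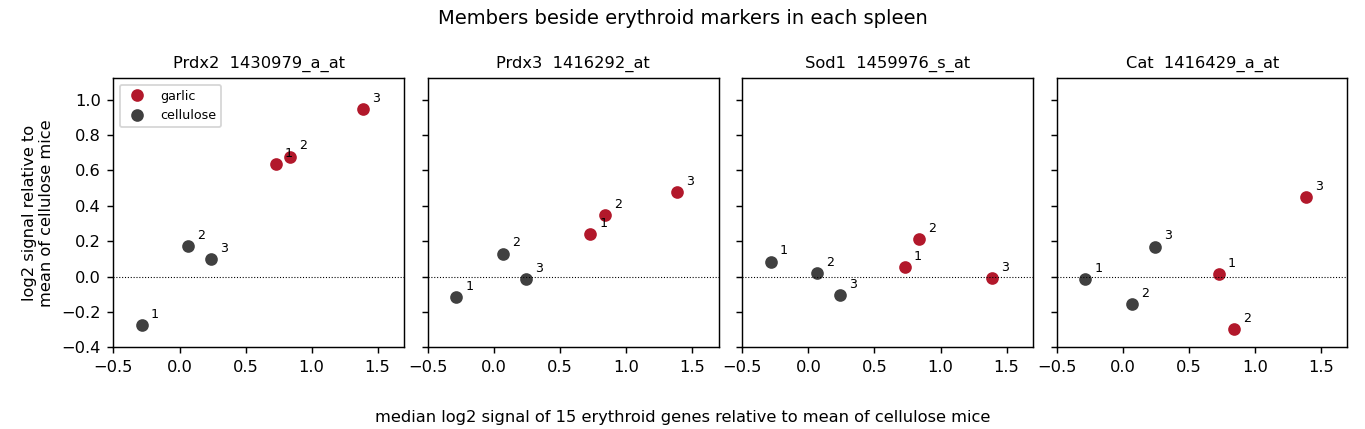
Log2 signal of 4 member probe sets (vertical axis) against the median log2 signal of 15 erythroid genes (horizontal axis) in each spleen, both relative to the mean of the control mice, with garlic-fed mice in red and control mice in grey, labelled by mouse number. Garlic-fed mouse 3 is at the upper right for Prdx2, Prdx3 and Cat, while Sod1 stays between -0.11 and 0.21. For Cat, garlic-fed mouse 2 is the lowest of all, at -0.30.

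Markers of other cell types were set beside these values. The median log2 fold change was 0.14 over 12 genes of red pulp macrophages, -0.16 over 8 of B cells, -0.19 over 7 of T cells and 0.30 over 8 of neutrophils, with 0 genes of these 4 lists past the adjusted threshold. Csf1r and Vcam1 of macrophages had 0.07 and 0.11, Ms4a1 and Cd79b of B cells -0.04 and -0.23, Cd3d and Cd2 of T cells -0.10 and -0.15, and S100a8 and S100a9 of neutrophils 0.20 and 0.17. Fat genes, with Scd1 and Car3 the brightest at 0.31 and 0.67, had a median of 0.81. Their summed signal was 20293, 21325 and 9116 in garlic-fed spleens 1 to 3, against 10870 to 11477 in control spleens, so that garlic-fed mouse 3 was the lowest of all. Pancreatic genes had a median of -4.44, with Prss2 and Cela1 at -3.72 and -1.79. Their part in the values of the members was not tested.

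By the root mean square difference of log2 signals, each centred on its mean over the 6 arrays, the genes nearest to Prdx2 (1418506_a_at) were Cenpk, a centromere protein, at 0.043, Pnp, purine nucleoside phosphorylase, at 0.045, and A430005L14Rik at 0.051. Cenpk read 1100, 1172 and 1453 in garlic-fed spleens, against 749, 898 and 917 in control spleens. Pnp read 5961, 6047 and 8329 in garlic-fed spleens, against 3813, 5185 and 5443 in control spleens. The genes nearest to Prdx3 were B4galt5, a galactosyltransferase, and 2700097O09Rik, both at 0.038, and Clec4n, a lectin receptor of myeloid cells, at 0.042. Clec4n read 3619, 3728 and 4070 in garlic-fed spleens, against 2789, 3109 and 2806 in control spleens. None of these 6 genes passed the adjusted threshold, and the smallest adjusted p among them was 0.127, for Clec4n.

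Around the members, 37 of 38 listed genes of the same chemistry were measured and tested. With limma 0 rose and 0 fell at an adjusted p under 0.05. Without adjustment 5 of them were higher, against 5.58% of all probe sets tested, and 3 were lower, against 5.44%. Each of the 37 was taken by its brightest probe set, while the shares count every probe set tested. With each array centred on its median the counts of higher and lower genes were 7 and 0. They were 2 and 1 with no trend of variance, 3 and 2 with the methods' one-way analysis, and 3 and 3 with no filter. Leaving out 1 array at a time, they ran between 3 and 7 and between 0 and 3. The median of their log2 fold changes was -0.0022, beside -0.03 over all genes tested, and the smallest adjusted p was 0.0609.

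Of 14 further genes of the thioredoxin system, with a median log2 fold change of 0.02, Txnrd2 had the largest difference. Txnrd2, the reductase of mitochondria that serves the same compartment as Prdx3, read 1033, 1129 and 1237 in garlic-fed spleens 1 to 3, against 648, 717 and 833 in control spleens 1 to 3. The groups did not overlap, and the ratio was 1.55-fold (log2 fold change 0.63, standard error 0.13, limma adjusted p = 0.0974). Txndc5 and Txndc12, thioredoxin-like proteins of the endoplasmic reticulum as Prdx4 is, had -0.44 (standard error 0.19, adjusted p = 0.431) and -0.35 (standard error 0.13, adjusted p = 0.334). Txndc5 read 3913, 4981 and 7527 in garlic-fed spleens, against 6829, 7362 and 7303 in control spleens, so that mouse 3 again stood apart from garlic-fed mice 1 and 2 and was here the highest of all. Txnip, the inhibitor that binds thioredoxin, had 0.03 (standard error 0.09), and Txnl1, a thioredoxin-like protein, had 0.15 (standard error 0.08).

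Of 10 glutaredoxins and glutathione peroxidases, with a median of 0.08, 4 had all garlic-fed spleens above all control spleens, Glrx5 and Gpx1 among them, and 1 had them below, against 7.52% and 9.29% of all probe sets tested. Glrx5, a mitochondrial glutaredoxin of iron-sulfur cluster assembly that erythroid heme synthesis needs, read 10820, 12142 and 13023 in garlic-fed spleens, against 7267, 7882 and 9060 in control spleens. Its ratio was 1.49-fold (log2 fold change 0.57, standard error 0.10, limma adjusted p = 0.0609). Glrx5 passed the threshold with quantile normalization, with each array centred on its median and with a higher floor. It also passed with a replicate block and without garlic-fed mouse 1. Under the other alternatives that gave an adjusted p, the methods' one-way analysis among them, it did not pass. Gpx1, the main cytosolic glutathione peroxidase, read 23362, 24263 and 24121 in garlic-fed spleens, against 20854, 19298 and 21175 in control spleens (log2 fold change 0.23, standard error 0.06, limma adjusted p = 0.211). Glrx, the cytosolic glutaredoxin, was on the other side, with 844, 928 and 753 in garlic-fed spleens, against 985, 1146 and 979 in control spleens (log2 fold change -0.30, standard error 0.12, limma adjusted p = 0.410).

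In the other lists no gene differed by as much as Txnrd2 or Glrx5. Among 4 genes of superoxide dismutases and copper delivery, with a median of 0.02, extracellular Sod3 had -0.20 (standard error 0.15), mitochondrial Sod2 0.05 (standard error 0.08) and the copper chaperone Atox1 0.07 (standard error 0.09). The 4 methionine sulfoxide reductases, which repair oxidized methionine with electrons from thioredoxin, had a median of -0.18, with Msrb1 at -0.18, Msra at -0.17 and Msrb2 at -0.31. The 5 genes of the superoxide-producing NADPH oxidase had a median of -0.10, or -0.02 with each array centred on its median. Of these Ncf4, Cybb and Rac2, at -0.17, -0.11 and -0.10, had all garlic-fed spleens below all control spleens, against 9.29% of all probe sets tested. For Cybb the groups all but touched, with garlic-fed mouse 1 at 6920 and control mouse 1 at 6922. Cyba, the small membrane subunit, was at -0.0022. None of the genes in this paragraph had an adjusted p under 0.05.

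**Figure D4:**
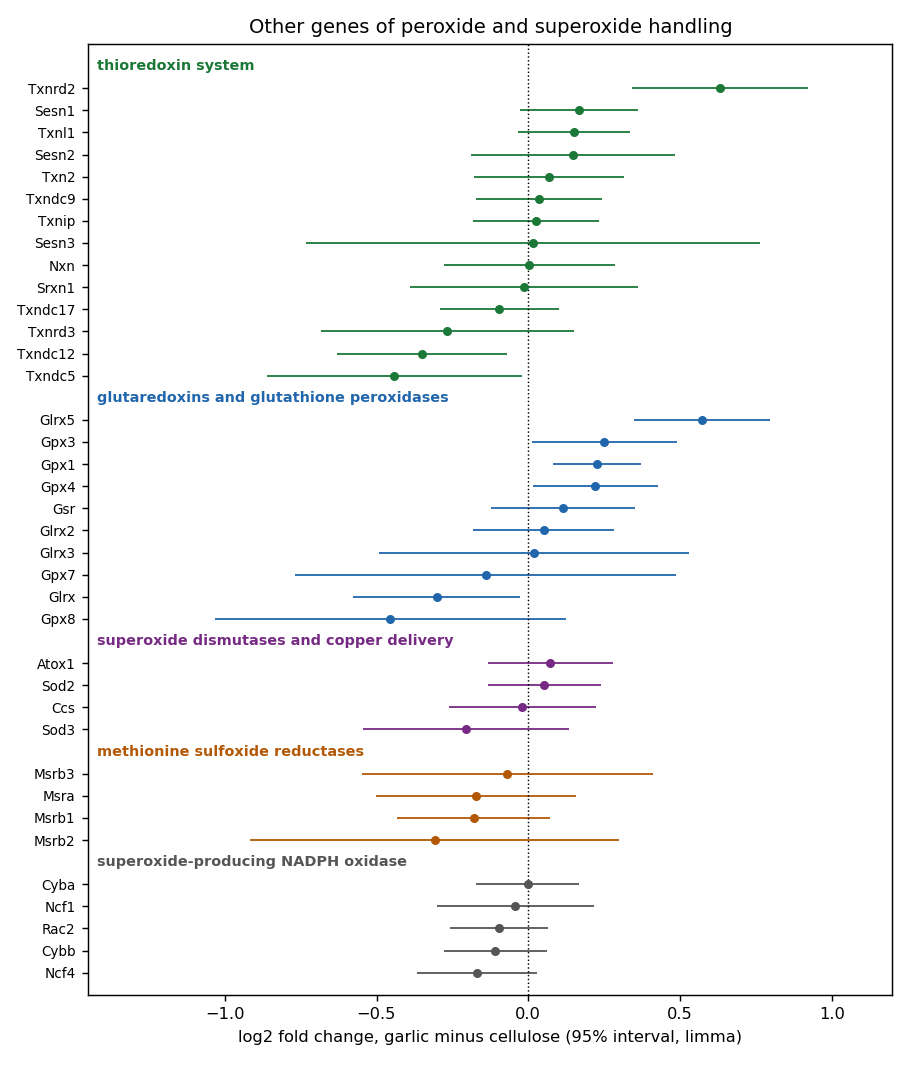
Log2 fold change, garlic minus control (cellulose), of the 37 further genes tested, each by its brightest probe set, with the 95% interval from limma (3 arrays per diet) and grouped by list. Txnrd2 and Glrx5 lie farthest to the right, at 0.63 and 0.57, and Txndc5 lies at -0.44.

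With 3 mice per diet a single gene tested by exact permutation could not reach a two-sided p under 0.1. Apart from those of the methods' one-way analysis, every adjusted p given here comes from limma's fit across all probe sets. The interval of Txn1 on its brightest probe set, 0.940 to 1.16, bounds the difference at this number of arrays. That of Sod1 on its brightest probe set, 0.928 to 1.21, ends below the 1.28-fold ratio of Prdx3. The intervals of Cat, 0.807 to 1.34, and of the second bright Sod1 probe set, 0.973 to 1.31, leave room for a difference of that size.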

How the data were processed

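The authors deposited MAS5 signal intensities of Affymetrix mouse array probe sets on a linear scale. Each array had a trimmed mean of 500 (2% left out at each end), read from the values, and the MAS5 version and scaling are not given in the sources used here. Such scaling makes every signal relative to the rest of its array.

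Control probe sets (64) were left out, which left 45037. Gene names were those of the array annotation, where 34741 of the 34945 probe sets with 1 gene matched the mouse reference by identifier. Before log2 was taken, 23.5 (the 20th percentile) served as a floor for the signals. A filter removed probe sets whose log2 signal averaged 6.08 (the 40th percentile) or less, 2 of the 19 member ones among them, and 27022 were tested, garlic minus cellulose, with limma 3.58.1 in R 4.3.3 (lmFit, eBayes with trend) and Benjamini-Hochberg adjustment over all of them. The fit was tested on simulated data. The number of arrays limits the precision. GEO's labels call the arrays biological replicates.

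The members, lists and tests were chosen with earlier results of these data known. Named were all members with every probe set, from each list of related genes up to 3 with the smallest unadjusted p and the 2 brightest, from each marker list the 2 brightest, and the 3 genes nearest to each of the 2 members with the largest change. Genes with several probe sets were taken by the brightest. Alternatives were quantile normalization, centring on the median, other floors and filters, no trend of variance, the methods' one-way analysis on log2 and linear signals, the mean of probe sets, a replicate block and leaving out arrays. The figures were made in Python 3.11.15 with matplotlib 3.10.9.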

Additional observations from a re-analysis of the deposited data

How the results depend on the processing

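Over the 17 alternatives that give values for single probe sets, 273 of 287 values of single member probe sets kept their direction and their side of the adjusted threshold. As 0 passed it in the main fit, keeping the side meant not passing. Changing only the filter, the variance trend, the block or the test on log2 signals left each fold change as it was. The direction could not turn under those alternatives, so the count is no measure of robustness. The count of member probe sets past the adjusted threshold was 0 except with arrays centred on their median, where it was 1 (Prdx2 1430979_a_at, adjusted p = 0.0403), and with a replicate block, where it was 2 (Prdx2, adjusted p = 0.0288 and 0.0137). Over all alternatives the adjusted p of 1418506_a_at ran between 0.0288 and 0.692 and that of 1430979_a_at between 0.0137 and 0.431. Same-numbered garlic-fed and control arrays, each taken relative to the mean of its diet, correlated at 0.00064, -0.176 and 0.0781. With 3 arrays per diet these values cannot show whether the numbers pair the mice. The block moved the calls over all probe sets to 270 higher and 25 lower, against 61 and 3.

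Quantile normalization gave 1 member probe set lower at an unadjusted p under 0.05, 1 with garlic-fed below all control arrays and 1 related gene past the adjusted threshold (Glrx5). Centring on the median gave 7 probe sets with garlic-fed above all control arrays, 1 related gene past the adjusted threshold (Glrx5), a median of 0.16 over the 7 genes and 147 higher and 4 lower calls over all probe sets, and it put the median of all probe sets at 0.04, beside -0.03. A floor at the 40th percentile gave 1 related gene (Glrx5). No filter gave 1 lower member probe set at an unadjusted p under 0.05 and 1 with garlic-fed below all control arrays, with 4 higher and 7 lower calls over all. The block gave 1 lower member probe set and 2 related genes (Glrx5 and Txnrd2). No trend of variance and the methods' one-way analysis gave 0 calls over all probe sets.

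Leaving out 1 array at a time, member probe sets lower at an unadjusted p under 0.05 numbered 0 to 2, those with garlic-fed below all control arrays 0 to 2, related genes past the adjusted threshold 0 to 1 (Glrx5 without garlic-fed mouse 1, Txndc5 without garlic-fed mouse 3), and the median over the 7 genes ran between 0.10 and 0.19. Calls over all probe sets were 0 without control mouse 1 or 2. The log2 fold change ran between -0.0298 and 0.38 for Txn1 1456734_at, -0.0525 and 0.13 for Prdx4 1435731_x_at, -0.0384 and 0.18 for Txnrd1 1424487_x_at, -0.14 and 0.23 for Cat 1416429_a_at, -0.15 and 0.14 for Cat 1416430_at, and -0.0069 and 0.29 for Sod1 1440222_at, with no change of sign between -0.41 and -0.13 for Prdx4 1416167_at and -0.53 and -0.13 for Prdx4 1416166_a_at. Without garlic-fed mouse 2 and control mouse 1, the arrays brightest in pancreatic genes within their diets, an alternative chosen after seeing the data, 1 member probe set had garlic-fed below all control arrays, the median over the 7 genes was 0.14, that of the thioredoxin system list was -0.05, Sod1 1440222_at was -0.0509, Prdx4 1416166_a_at was -0.01, Txnrd1 1421529_a_at was 0.14 and the calls over all were 8 higher and 28 lower. The causes were not tested. Prdx4 1431269_at and Sod1 1447761_x_at lay near background, which limits what they show.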
